A study of Mus musculus with 6 samples.

Results

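Hepatic transcripts for glucose uptake, glycolysis and the first step of fructose breakdown were examined on liver arrays of DUhTP mice, which run far on a treadmill without training, and of unselected DUC mice. The 8 genes were Slc2a2, Pfkl, Aldoa, Tpi1, Pgam1, Pklr, Ldha and Khk, and every probe set that carries 1 of these symbols and no other was taken. This gave 16 probe sets of 22626 tested, and 8 genes of the 12393 with such a probe set. DUhTP stands for a line bred over many generations for high treadmill performance, and DUC for its control line. Both are non-inbred and go back to the same cross of outbred and inbred mice. The animals were untrained males of 70 days, and each line was measured on 3 Affymetrix mouse gene arrays, 6 in all. According to the methods an array held a pool of livers, and according to the sample labels a single mouse, so the SD among arrays is one among either pools or mice.

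The liver takes up glucose through a transporter that works in both directions and follows the glucose level of the blood. Glycolysis then splits each hexose into a pair of trioses and turns these into pyruvate, and several of its steps are made by a liver form of an enzyme whose other forms serve muscle, brain or blood cells. Liver glycolysis is known to rise after carbohydrate feeding, when it supplies carbon for fatty acid synthesis. Fructose joins the pathway at the trioses after phosphorylation by ketohexokinase.

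Transcripts of Slc2a2, the bidirectional hepatocyte glucose transporter, and Pgam1, the phosphoglycerate mutase of most tissues, rose in DUhTP mice. Slc2a2 had a fold change (FC) of 1.79 and Pgam1 one of 1.59. Liver pyruvate kinase Pklr, liver phosphofructokinase Pfkl and ketohexokinase Khk read higher in DUhTP mice without passing the test, at an FC between 1.22 and 1.81. Aldolase A (Aldoa) read lower on all 4 of its probe sets, again without passing. Triosephosphate isomerase Tpi1 and lactate dehydrogenase A (Ldha) overlapped between the lines.

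Of the 16 probe sets 2 passed limma's moderated test at an adjusted p under 0.05, both higher in DUhTP mice. Over all probe sets 2.41% passed in either direction. With 16 added to every intensity before the log, which damps differences among dim probe sets, 4 of the 16 passed, all higher, against 8.62% of all. At an unadjusted p under 0.05 the count was 10, of which 7 were higher and 3 lower, against 21.1% of all, and with limma-trend it was 7, of which 5 were higher and 2 lower, against 10.4%. None of the 16 had an FC over 2, so 0 met the stricter rule of an adjusted p under 0.05 with an FC over 2, which 1.45% of all met. In 7 of the 16 every DUhTP array lay above every DUC array, which held for 13.6% of all probe sets, and in 4, all of Aldoa, every DUhTP array lay below, which held for 15.8% of all. The other 5 overlapped between the lines. With 3 arrays against 3 such a separation is the most an exact permutation test can see, and its smallest 2-sided p is 0.10. The median log2 fold change (log2FC, DUhTP minus DUC) was 0.13 over the 16 probe sets and -0.02 over all probe sets. On the brightest probe set of each gene it was 0.39 for the 8 genes and 0.001 for all genes.

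**Figure D1:**
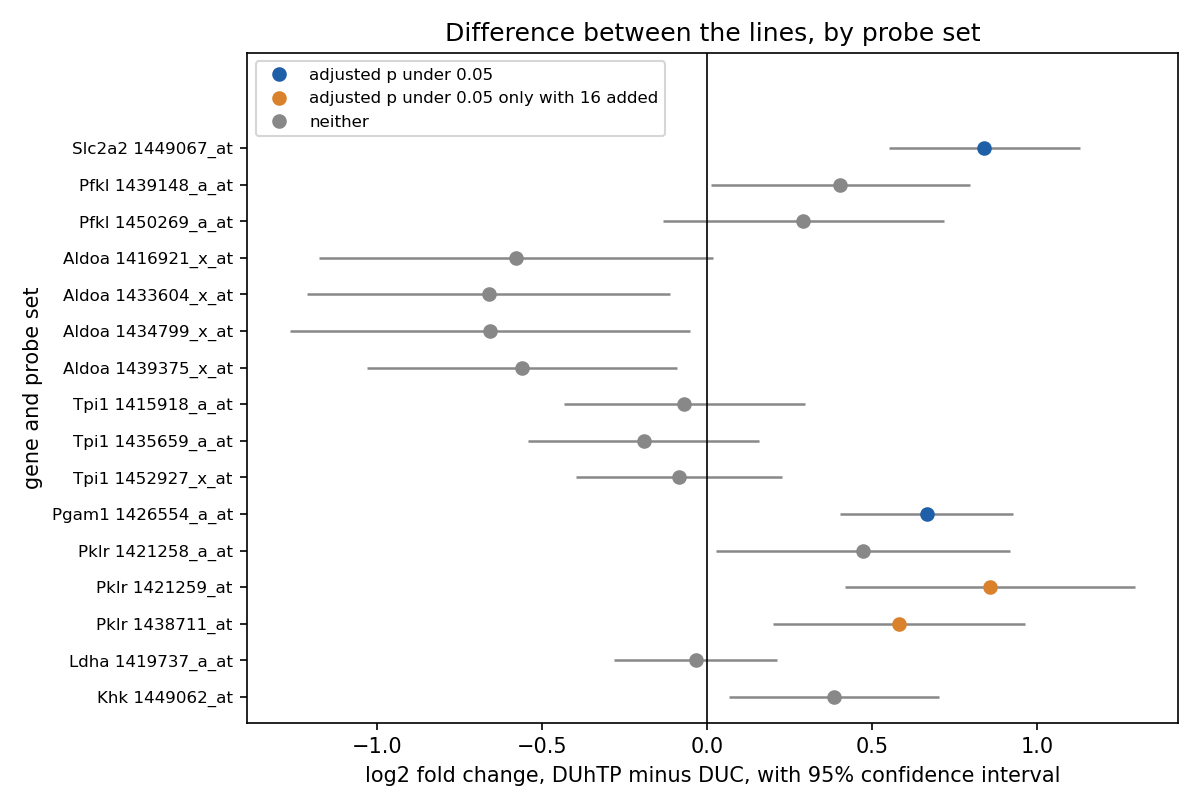
Log2FC (DUhTP minus DUC) of the 16 probe sets, one per row, with its 95% confidence interval from limma. The points of Slc2a2 at 0.84 and Pgam1 at 0.67, drawn in blue, met the 0.05 limit on adjusted p, 2 of the 3 Pklr points, in orange, did so only with 16 added, and the 4 Aldoa points lie to the left of 0.

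Promoters are shown for the 2 genes that passed, for Pklr and for Ldha, so that the sequence at the start of genes that read higher can be set beside that of one whose lines overlapped. They are RefSeq sequences of build GRCm38.p6 and run from 250 bases before to 50 bases after the transcript start. All 8 genes have at least 1 of the 32851 promoters in that set, and 12 belong to them. Capitals mark matches on either strand to 5 letter patterns: CACGTG, the E box bound by USF, MYC and ChREBP:MLX factors, its variant CACGGG, TCACNCCAC, a core of SREBP sites, TATAAA, and CCAAT. No 2 of the marked matches overlap one another.

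The Slc2a2 promoter is chr3:28697653-28697952 on the plus strand, that of Pgam1 is chr19:41911621-41911920 on the plus strand, the downstream one of the 2 Pklr promoters is chr3:89136373-89136672 on the plus strand, and the upstream one of the 2 Ldha promoters is chr7:46845554-46845853 on the plus strand. The Pklr starts lie 481 bases apart. The downstream start is known to give the liver form and the upstream one the red cell form.
Slc2a2: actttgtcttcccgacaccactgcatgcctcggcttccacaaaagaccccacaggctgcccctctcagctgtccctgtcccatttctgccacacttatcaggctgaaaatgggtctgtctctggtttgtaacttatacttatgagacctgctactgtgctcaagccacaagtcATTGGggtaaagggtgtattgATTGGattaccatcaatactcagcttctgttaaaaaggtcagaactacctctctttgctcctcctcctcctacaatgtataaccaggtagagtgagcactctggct
Pgam1: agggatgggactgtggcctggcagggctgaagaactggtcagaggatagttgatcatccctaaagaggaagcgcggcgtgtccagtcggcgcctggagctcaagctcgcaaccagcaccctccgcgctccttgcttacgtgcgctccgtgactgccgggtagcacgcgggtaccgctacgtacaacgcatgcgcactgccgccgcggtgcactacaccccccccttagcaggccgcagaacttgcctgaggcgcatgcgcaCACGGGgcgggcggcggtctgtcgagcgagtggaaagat
Pklr: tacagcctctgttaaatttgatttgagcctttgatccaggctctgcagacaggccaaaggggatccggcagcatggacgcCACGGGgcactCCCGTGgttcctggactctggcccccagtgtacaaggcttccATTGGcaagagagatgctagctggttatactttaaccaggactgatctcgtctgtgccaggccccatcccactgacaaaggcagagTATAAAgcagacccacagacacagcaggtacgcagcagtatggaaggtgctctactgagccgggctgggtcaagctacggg
Ldha: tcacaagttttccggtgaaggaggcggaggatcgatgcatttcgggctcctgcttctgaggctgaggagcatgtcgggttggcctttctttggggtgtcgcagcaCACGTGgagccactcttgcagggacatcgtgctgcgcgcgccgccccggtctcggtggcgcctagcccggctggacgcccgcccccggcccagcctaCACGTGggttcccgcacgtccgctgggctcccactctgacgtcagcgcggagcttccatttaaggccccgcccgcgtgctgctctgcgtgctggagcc

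In the Pklr promoter CACGGG begins at base -170 and is followed, after 5 bases, by its reverse complement CCCGTG at -159. This paired pattern, searched for after it had been seen, was found in 1 of the 32851 promoters. The region is known from the literature as the carbohydrate response element of the gene. CCAAT lies on the reverse strand at -117, and TATAAA begins at -31. CACGGG alone was found in 10.1% of all promoters and TATAAA in 13.6%. Ldha, with overlapping lines, holds CACGTG at -145 and -48, a pattern of 7.15% of all promoters, and Khk holds it at -71. Slc2a2 holds CCAAT on the reverse strand at -77 and -56 (37.4% of all) and Pgam1 holds CACGGG at 12, as does Pfkl at 44. TCACNCCAC, present in 1.24% of all promoters, was in none of the 12. A match is a string of letters and was not tested for binding.

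Slc2a2 encodes GLUT2, through which glucose enters and leaves the hepatocyte. Its probe set 1449067_at read 2613, 2399 and 2635 in DUhTP replicates 1, 2 and 3 and 1571, 1388 and 1321 in DUC replicates 1, 2 and 3. The lowest DUhTP array thus lay well above the highest DUC array. The log2FC was 0.84 with a standard error of 0.12 (2549 ± 130.5 against 1426 ± 129.5, SD, n = 3 per line, adjusted p = 0.0324). Its size changed little when single arrays were left out, with a range of 0.79 to 0.91, but the adjusted p then lay between 0.0701 and 0.135. With 16 added it stayed between 0.00358 and 0.0189 without any 1 array.

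Pgam1 converts phosphoglycerate from one form to the other in the later part of glycolysis and works in gluconeogenesis as well. Probe set 1426554_a_at read 2359, 2275 and 2170 in DUhTP livers and 1398, 1526 and 1368 in DUC livers. The lines did not overlap, and the spread inside either was small beside the distance between them. The log2FC was 0.67 with a standard error of 0.11 (2268 ± 95 against 1431 ± 84.2, SD, n = 3 per line, adjusted p = 0.0432). Without single arrays it ranged from 0.63 to 0.71, with an adjusted p between 0.0941 and 0.160 (0.0124 to 0.0375 with 16 added).

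Pklr makes pyruvate and ATP from phosphoenolpyruvate, the last step of glycolysis in liver. Of its 3 probe sets the brightest, 1438711_at, read 259, 292 and 262 in DUhTP mice and 166, 163 and 219.5 in DUC mice. Probe set 1421259_at read 70.8, 92.4 and 68.5 against 49.9, 40.3 and 37.4. Probe set 1421258_a_at read 206, 221 and 152.2 against 139, 151.9 and 122. All 3 separated the lines, but the third did so only narrowly, since DUhTP replicate 3 stood next to DUC replicate 2. The log2FC values were 0.58, 0.86 and 0.47 with standard errors of 0.16, 0.18 and 0.18, and the adjusted p was 0.118, 0.0724 and 0.216. With 16 added the adjusted p of the first and second was 0.0359 and 0.0170, and without single arrays it then reached up to 0.143 and 0.0820. The liver form and the red cell form share most of the gene, and which form each probe set detects is not given in the sources used here.

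Pfkl is the liver subunit of phosphofructokinase, which commits hexose phosphate to glycolysis. Probe set 1439148_a_at read 233, 232 and 170.2 in DUhTP mice and 149, 162 and 165 in DUC mice. The first 2 DUhTP arrays were far above the controls and replicate 3 just above them. Probe set 1450269_a_at read 201, 198 and 146 against 151, 162 and 130, and here DUhTP replicate 3 fell among the controls. The log2FC values were 0.40 and 0.29 (standard errors 0.16 and 0.17, adjusted p = 0.227 and 0.394). Without DUhTP replicate 3 they were 0.55 and 0.44, and with 16 added as well the first passed (adjusted p = 0.0371).

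Khk phosphorylates fructose and so feeds it into the pathway below phosphofructokinase. Probe set 1449062_at read 1965, 1729 and 1644 in DUhTP livers and 1420, 1446 and 1226 in DUC livers, with no overlap. The log2FC was 0.38 with a standard error of 0.13 (adjusted p = 0.175, with 16 added 0.0857). With limma-trend, in which the expected variance follows the intensity, Khk passed (adjusted p = 0.0341).

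**Figure D2:**
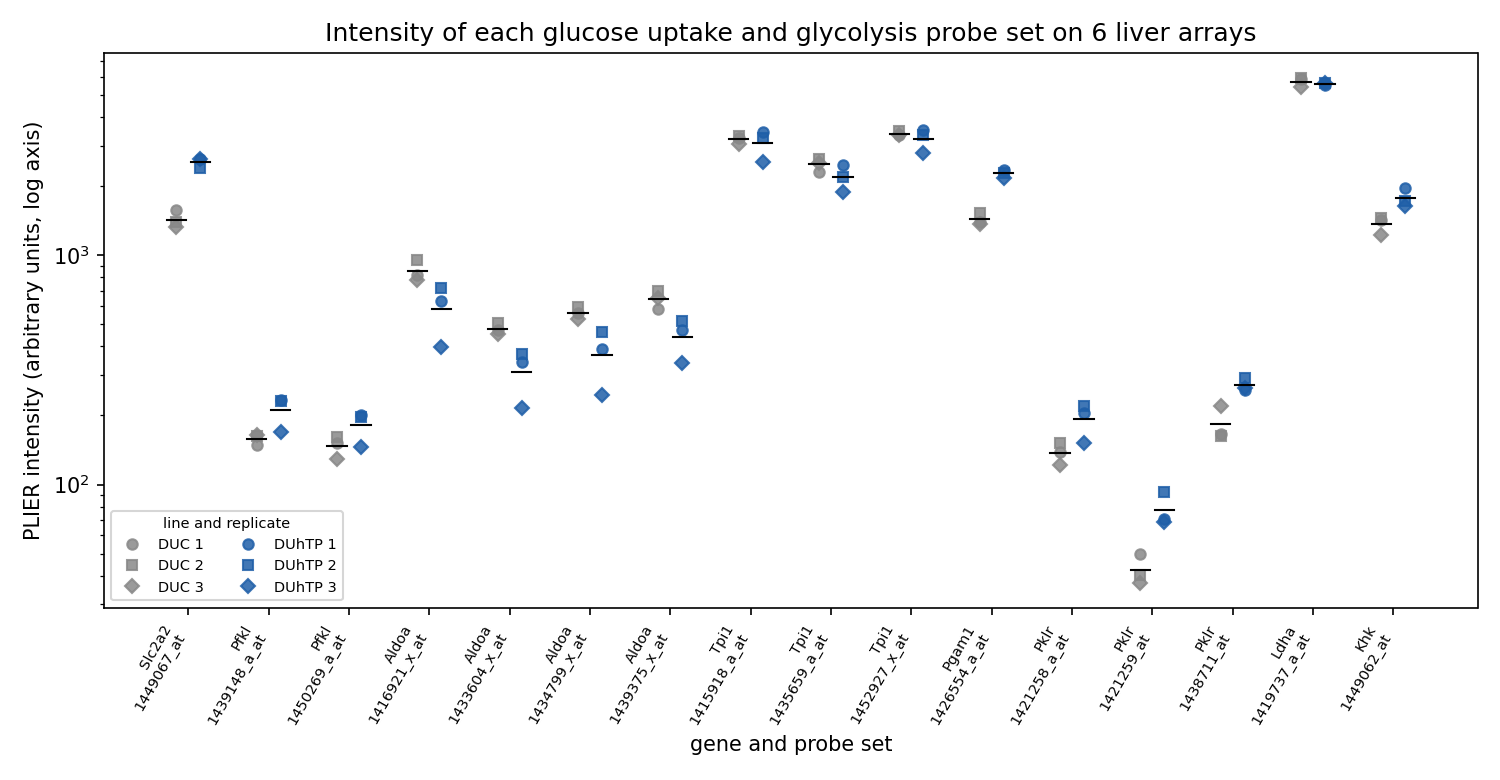
PLIER intensity (log axis) of each of the 16 probe sets on the 3 DUC arrays (grey) and 3 DUhTP arrays (blue), with a black bar at each mean. The blue points of Slc2a2, Pgam1, Khk and Pklr stand above the grey ones, those of Aldoa stand below, and DUhTP 3, the blue diamond, is the lowest DUhTP array in 13 of the 16 columns.

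Aldoa encodes the aldolase of muscle, red cells and many other tissues, while hepatocytes chiefly use aldolase B. Its 4 probe sets end in _x_at, meaning that some of their probes can match further transcripts, so their signal may not come from Aldoa alone. The brightest, 1416921_x_at, read 629, 722 and 399 in DUhTP mice and 817, 949.5 and 780 in DUC mice. Probe set 1433604_x_at read 342, 369 and 216 against 472, 506 and 452. Both kept the lines apart, with DUhTP replicate 3 by far the lowest array. Probe set 1434799_x_at read 390.3, 462 and 246 against 559, 595 and 525, and 1439375_x_at read 470, 514 and 337 against 579, 699.8 and 647. The 4 moved together over the 6 arrays, with a Pearson correlation of at least 0.971 between any pair of them, so they count as 1 observation of the gene rather than 4.

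The log2FC values of Aldoa lay between -0.66 and -0.56, with standard errors of 0.19 to 0.25 and an adjusted p between 0.175 and 0.248. Without DUhTP replicate 3 the difference was smaller, at -0.33 on the brightest probe set and -0.42, -0.40 and -0.38 on the others. The direction was the same in every setting tried. With 16 added the adjusted p lay between 0.0577 and 0.109 on all 6 arrays. With DUhTP replicate 2 left out as well, all 4 passed (0.0267 to 0.0463). With any other single array left out it lay between 0.0631 and 0.300. The share of all probe sets that passed without DUhTP replicate 2 was not computed. With limma-trend 2 of the 4 passed.

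Tpi1 interconverts the trioses, and Ldha turns pyruvate into lactate. The brightest Tpi1 probe set, 1452927_x_at, read 3495, 3347 and 2775 in DUhTP mice and 3333, 3468 and 3353 in DUC mice. It has the same suffix as the Aldoa probe sets, so its signal too may not come from this gene alone. Ldha, on 1419737_a_at, read 5490, 5602 and 5603 against 5844, 5901 and 5377. The lines overlapped in both. The 95% confidence interval of the log2FC was -0.40 to 0.23 for this Tpi1 probe set and -0.28 to 0.21 for Ldha, so differences as large as that of Slc2a2 or Pgam1 on the log2 scale (0.84 and 0.67) lay outside both intervals. The other Tpi1 probe sets had log2FC values of -0.07 and -0.19, with wider intervals of -0.43 to 0.30 and -0.54 to 0.16. On 1452927_x_at the sign of the Tpi1 difference turned without DUhTP replicate 3 (0.015), and that of Ldha turned after quantile normalization (0.0076).

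DUhTP replicate 3 was the lowest DUhTP array in 13 of the 16 probe sets, compared with 32.9% of all probe sets, and its median intensity of 56.3 was like those of the other arrays (53.1 to 57.0). It was not the lowest for Slc2a2, for Ldha or on the brightest Pklr probe set. The DUC arrays showed a like skew: DUC replicate 3 was their lowest in 11 of the 16 (37.4% of all probe sets). DUC replicate 2 was their highest in 12, for which the share over all probe sets was not computed. Probe sets of the same gene are not separate observations in these counts. After the line mean had been taken off each array, Pfkl, Aldoa and Tpi1 deviated together over the 6 arrays, with a Pearson correlation of 0.972 for Pfkl and Aldoa, 0.963 for Pfkl and Tpi1 and 0.890 for Aldoa and Tpi1. These pairs were singled out as the highest of all, and next came Aldoa and Pklr at 0.848 and Pgam1 and Khk at 0.809. Without DUhTP replicate 3 the first 3 correlations were 0.693, 0.675 and 0.03, so that of Aldoa and Tpi1 rested on this array. The highest was then that of Pfkl and Pgam1, at 0.978. For Slc2a2 the values ranged from -0.39 with Aldoa to 0.50 with Ldha, and were -0.09 with Pgam1, -0.26 with Pfkl and 0.45 with Khk (0.73 without DUhTP replicate 3). Each of these values describes 6 arrays, or 5 without DUhTP replicate 3, that are shared by all genes.

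**Figure D3:**
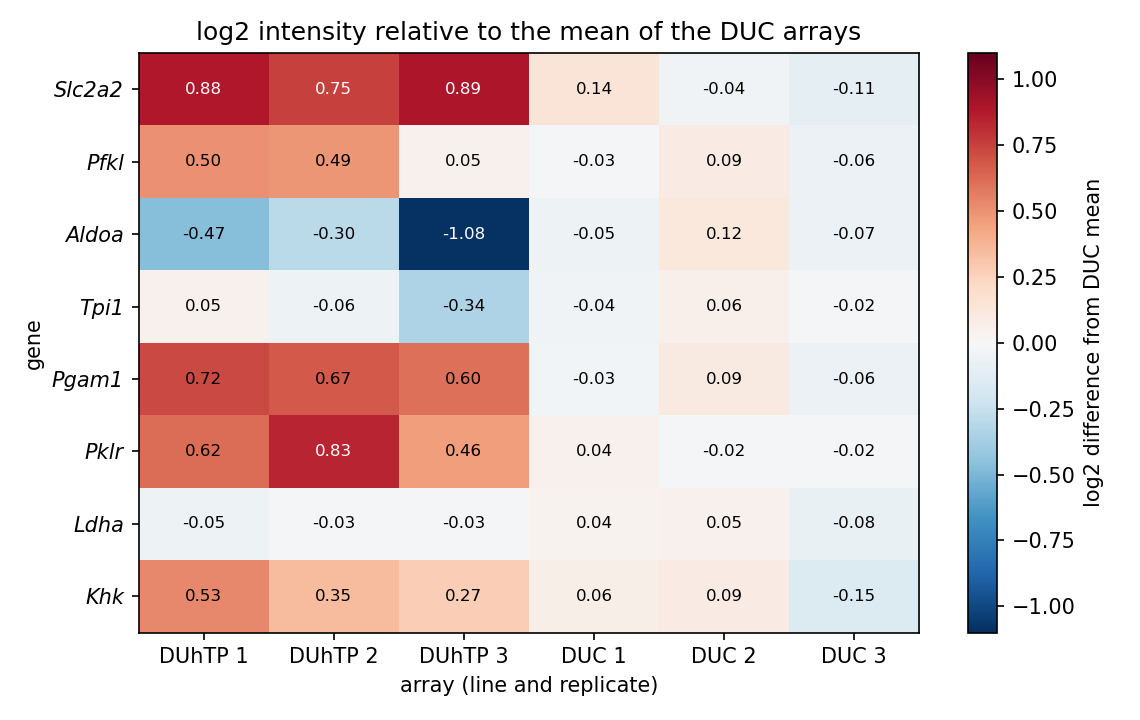
Log2 intensity of each gene (mean over its probe sets) on each array, minus the mean of the 3 DUC arrays. Slc2a2 was 0.75 to 0.89 above that mean on the DUhTP arrays and Pgam1 0.60 to 0.72, whereas Aldoa was 0.30 to 1.08 below it and Ldha stayed within 0.09 on every array.

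Other enzymes of glycolysis were measured by 15 of the 23 genes listed. Of these 0 passed limma's test, against 3.32% of all genes with a probe set past an adjusted p under 0.05, and 0 passed with 16 added (11.3% of all genes) or with limma-trend (13.2%). At an unadjusted p under 0.05 there was 1, against 27.4% of all genes. This was Pfkfb2, a subunit that makes and breaks the activator of phosphofructokinase. Its dim probe set 1422090_a_at read 3.82, 2.95 and 2.35 in DUhTP mice and 6.79, 12.4 and 9.22 in DUC mice (adjusted p = 0.0505), whereas its brighter probe sets overlapped between the lines. Gckr, the nuclear inhibitor of liver glucokinase, had a log2FC of 0.13 (adjusted p = 0.520). Pkm, the pyruvate kinase of tissues other than liver, read 49.4, 62.3 and 53.6 against 46.4, 45.7 and 43.2 (log2FC 0.28, adjusted p = 0.275). Aldoc and Ldhb, further aldolase and lactate dehydrogenase forms, had log2FC values of 0.24 and 0.04 on their brightest probe sets, and Eno2, the neuronal enolase, was dim at 12.8 or less on every array. The median log2FC of the 15 genes, each on its brightest probe set, was 0.04.

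Of 13 measured transporters of sugars and monocarboxylates 0 passed limma's test without an added constant, against 3.32% of all genes. At an unadjusted p there were 5 (27.4% of all genes), of which 2 were higher (Slc2a3 and Slc2a4) and 3 lower, and with 16 added, as with limma-trend, the 3 lower ones passed (11.3% and 13.2% of all genes). These were Slc37a4, Slc16a7 and Slc2a1. Slc37a4 carries glucose phosphate into the endoplasmic reticulum for release as glucose. Slc16a7 is a monocarboxylate carrier, and Slc2a1 is the transporter GLUT1 of many tissues. Slc37a4 read 1967, 2135 and 1953 in DUhTP mice and 3112, 3025 and 2810 in DUC mice, with no overlap (log2FC -0.56, standard error 0.11, adjusted p = 0.0599, with 16 added 0.0123). Slc16a7 had a log2FC of -0.55 (adjusted p = 0.119, with 16 added 0.0375). Slc2a1 had one of -0.55 on 1426599_a_at (adjusted p = 0.0819, with 16 added 0.0361) and of -0.18 on its brightest probe set, where the lines overlapped. Bsg, which brings monocarboxylate carriers to the membrane, had a log2FC of 0.39 (adjusted p = 0.390), and Slc2a3, the transporter GLUT3, read 35.2 or less on every array. Slc2a4, the insulin-responsive transporter of muscle and fat, read 122, 131 and 107 against 95.4, 83.1 and 62.8 on its brightest probe set (log2FC 0.59, adjusted p = 0.159).

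Genes for handling fructose, galactose and other hexoses were measured by 10 of 14. None passed limma's test (3.32% of all genes), 5 did at an unadjusted p (27.4%), and 3 did with 16 added (11.3%) or with limma-trend (13.2%). Tkfc, the triokinase that acts after Khk and aldolase on fructose carbon, read 238, 213 and 261 in DUhTP mice and 129, 161 and 210.5 in DUC mice, just without overlap (log2FC 0.53, standard error 0.20, adjusted p = 0.216, with 16 added 0.0966). Galt, of galactose breakdown, read 558, 653 and 574 against 419, 449 and 429 (log2FC 0.46, adjusted p = 0.101, with 16 added 0.0370). Glyctk, glycerate kinase, had a log2FC of -0.70 on 1424995_at (adjusted p = 0.0995, with 16 added 0.0213) and of -0.34 on its other probe set. Adpgk, an ADP-dependent glucokinase, had one of -0.83 on 1437848_x_at and -0.52 on 1451079_at (adjusted p = 0.139 and 0.164, with 16 added 0.0441 and 0.0873). Pmm1, a phosphomannomutase, had probe sets in opposite directions (0.48 and -0.50), and Gfpt1, of hexosamine synthesis, overlapped on both probe sets.

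The last list held transcription factors that act on glycolytic genes and Txnip, a glucose-responsive arrestin that is not a transcription factor. Of its 14 measured genes 1 passed, against 3.32% of all genes. It was Srebf1, which encodes the sterol and lipid synthesis factor SREBP-1. It read 662, 450.1 and 464 in DUhTP mice and 158, 164 and 202 in DUC mice, and its log2FC was 1.57 with a standard error of 0.20 (adjusted p = 0.0263). Txnip overlapped between the lines (-0.12 on its brightest probe set). Leaving out 1 array at a time, the count was 0, except without DUhTP replicate 3, when it was 1 and the gene was Hif1a, lower. With 16 added 4 of the 14 passed, against 11.3% of all genes, namely Srebf1 and, in the lower direction, Hnf4a, Hif1a and Myc. Hnf4a, a main regulator of hepatocyte genes, read 895, 826 and 913 against 1229, 1449 and 1497 on 1427000_at (log2FC -0.66, adjusted p = 0.0590, with 16 added 0.00948), and 3 of its 4 probe sets separated the lines. Hif1a, the oxygen-regulated factor that drives glycolytic genes in low oxygen, read 155, 80.9 and 125 against 230.0, 225 and 239 on 1427418_a_at (log2FC -0.99, adjusted p = 0.103, with 16 added 0.0171). Its probe set 1416035_at also separated the lines, whereas 1448183_a_at and 1431981_at overlapped between them. Whether Hif1a bears on the genes above was not tested. Myc had a log2FC of -0.80 (adjusted p = 0.0994, with 16 added 0.0253). Foxa2 and Usf1 had log2FC values of 0.39 and 0.38 (adjusted p = 0.151 and 0.141).

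**Figure D4:**
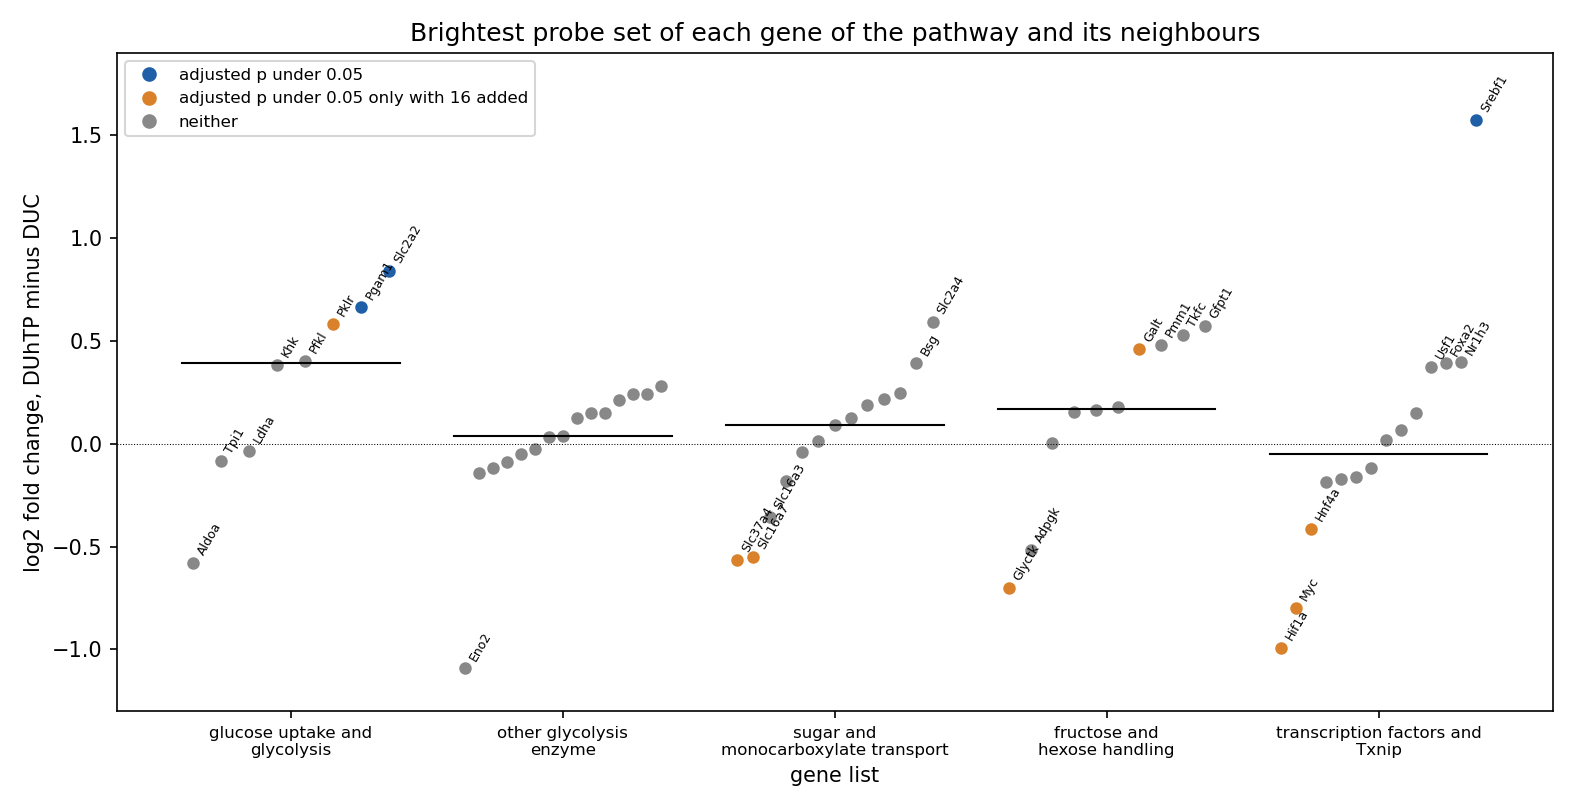
Log2 fold change of each measured gene on its brightest probe set, for the 8 genes of interest and 4 lists of related genes, with a black line at each median. Blue points passed an adjusted p under 0.05, orange ones only with 16 added. Labels are given to the 8 genes, to coloured points and to those farther than 0.35 from 0. Srebf1 at 1.57 stands highest, and the colours refer to the brightest probe set only, so Slc2a1 and Adpgk, which passed with 16 added on another probe set, are grey.

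The patterns most like those of the members were sought among the brightest probe sets of all other genes, as the Pearson correlation of log2 intensity over the 6 arrays. For Slc2a2 they were Adh1 (0.998), an alcohol dehydrogenase of hepatocytes, Ugt3a1 (0.997) and Sirt4 (0.996), a mitochondrial sirtuin. For Pgam1 they were Slc17a3 (0.997), a phosphate and urate transporter, Nfil3 (0.996), a repressor linked to the circadian clock, and Copz1 (0.996). For Pklr they were Izumo1r (0.994), Cnpy2 (0.994) and Tprgl (0.993). Correlations over 0.95 were found for 312 other genes with Slc2a2, 329 with Pgam1 and 55 with Pklr. With 6 arrays in 2 lines such values mostly follow the difference between the lines.

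Liver tissue was well marked on all arrays, and the summed intensity of 7 hepatocyte markers was 78632 to 81457 in DUhTP and 84088 to 87381 in DUC mice. Of these 1 fell, the amino acid enzyme Tat, and 0 rose. For this and the marker counts below, 3.32% of all genes passed in the main test and 11.3% with 16 added. The lists are short, so their counts were not tested against these shares. Tissue of blood or muscle origin uses some of the same enzymes. Among 3 erythroid markers Alas2 rose (log2FC 0.88, adjusted p = 0.0499), whereas Hba-a1 and Epb42 had log2FC values of -0.08 and -0.43. The summed intensity was 1245 to 1624 against 741 to 828. Alas2 alone read 1187 to 1558 against 650 to 763, so the sum mostly repeats it. Among 6 Kupffer cell markers Clec4f rose (1.13, adjusted p = 0.0320), and with 16 added 4 passed, Clec4f, Cd68 (0.79) and Adgre1 (0.55) in the higher and Marco (-0.60) in the lower direction. Cd5l was level (-0.01), and the list had sums of 2153 to 2796 against 1628 to 2304. Sums of 5 endothelial markers were 1387 to 1554 against 1107 to 1222, and those of 5 skeletal muscle markers were 132 to 154 against 108 to 134, with 0 called in either list. With 16 added 1 of them passed, endothelial Stab2 (0.48). For exocrine pancreas, whose markers were lowest in DUhTP replicate 2 (5 markers, 0 called), they were 901 to 3087 against 3291 to 6322. With 16 added Prss2 (-2.27) and Ctrb1 (-3.05) passed as lower (adjusted p = 0.0479 and 0.0259). Sums for stellate cells (5 markers), cholangiocytes (4) and lymphocytes (4) overlapped between the lines, again with 0 called. In whole liver a change in the number of cells of a type and a change of RNA per cell cannot be told apart, and the part of other cells in the differences above was not tested.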

How the data were processed

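Liver RNA of 3 DUhTP and 3 DUC samples was hybridized to Affymetrix mouse gene arrays. The deposited values are linear intensities without a unit. Per the labels and methods, the authors used global scaling of GCOS 1.1.1 and PLIER to summarize probe sets. The PLIER version and an added constant are not given in the sources used here.

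After removal of 64 control probe sets 22626 were tested. Intensities were logged to base 2 with no constant. The lines were compared with limma 3.58.1 in R 4.3.3 (lmFit and eBayes, unpaired, 2-sided), and p was adjusted over all tested probe sets by Benjamini-Hochberg. Symbols came from the array annotation, and only probe sets with 1 symbol were assigned to a gene. The genes, the 4 lists and the tests were chosen with earlier results of these data known. Related genes were named by a rule: those passing the test and, up to 6 a list, those with the smallest p. Marker genes and the Pklr motif pair were picked for naming after their values were seen. Listed genes without such a probe set were not analysed here.

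The alternatives were 16 added, quantile normalization, leaving out the dimmest 33.3%, limma-trend, weights per array, the replicate number as a block, only probe sets specific to 1 transcript by their suffix, and dropping each array in turn. Combining these with 16 added was decided after the data had been seen. The procedure was tested on simulated data. The number of arrays limits the precision, and as nothing says how the samples of a line were separated, p-values measure only the spread between them.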

Additional observations from a re-analysis of the deposited data

How the results depend on the processing

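The 2 calls among the 16 probe sets became 4 with 16 added, 4 without the dimmest 33.3%, 7 with limma-trend, 10 at an unadjusted p, 1 with specific probe sets only, which leaves out the probe set of Pgam1, and 0 with an FC over 2. Array weights and quantile normalization left the count at 2. Without any 1 array it was 0 (range 0 to 0), and with 16 added it was 2 to 7, lowest without DUC replicate 2 (Slc2a2 and Pgam1) and highest without DUhTP replicate 2 (with the 4 Aldoa probe sets). Over all probe sets same-numbered arrays deviated little together (r = 0.0034, 0.0048 and 0.067). A correlation over mostly unchanged probe sets cannot settle whether the numbers pair the samples, and the sources used here do not say. With the replicate block the count was 0, and 7 with 16 added. Shares of all probe sets are given above only for the main test, 16 added, limma-trend, an unadjusted p and an FC over 2. In the other settings a changed count may hold for all probe sets and is not a result about the 16.

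Of the related genes, the other enzymes had 1 call at an unadjusted p. Transporters had 3 with 16 added, 3 without the dimmest 33.3%, 3 with limma-trend, 1 with array weights and 5 at an unadjusted p. Hexose genes had 3, 3 and 3 under the first of these alternatives and 5 at an unadjusted p. Transcription factors and Txnip had 4, 4 and 5, then 6 at an unadjusted p, 0 with the replicate block, 0 with specific probe sets only (that of Srebf1 is left out), and 0 to 1 without single arrays. For these lists shares of all genes are given above only for the main test, 16 added, limma-trend and an unadjusted p. The cause of the other shifts was not tested. For the 8 genes 163 fold changes were recomputed, on the brightest probe set of each or on the mean over its probe sets. Of these 137 kept direction and side of the threshold, 14 no longer passed, 9 newly passed and 3 changed sign. Those were Tpi1 without DUhTP replicate 3 (0.015, also with 16 added, in a range of -0.15 to 0.015 without single arrays) and Ldha after quantile normalization (0.0076). Tpi1 probe set 1415918_a_at, which is outside these counts, also turned without DUhTP replicate 3 (0.062).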
